A study of Mus musculus with 81 samples.

Results

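MHC class II genes were followed in RNA-seq libraries of mouse macrophages of WT mice and of mice with a conditional deletion of the genes of the histone variant H3.3. The genes were taken by symbol, and 8 of the 54079 genes listed for every library belong to the group. They are the chain genes of the classical molecules (H2-Aa, H2-Ab1 and H2-Eb1), those of the peptide exchange factor DM (H2-DMa, H2-DMb1 and H2-DMb2), Cd74, which encodes the invariant chain, and Ciita, which encodes the class II transactivator.

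MHC class II molecules present peptides of endocytosed proteins to CD4+ T cells. Macrophages hold little of them at rest and more after IFNγ, which acts on Ciita. CIITA does not bind DNA itself and docks on the RFX, CREB and NF-Y factors at the X, X2 and Y boxes of class II promoters. The invariant chain guides new class II dimers to endosomes, DM exchanges the remnant of that chain for peptide, and DO (H2-Oa with H2-Ob) inhibits DM. H2-Aa and H2-Ab1 encode the α and β chains of I-A. H2-Eb1 encodes the β chain of I-E, whose α chain is not made in mice of the b haplotype such as C57BL/6.

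The study asked what the loss of H3.3 does in macrophages. WT cells were H3f3a fl/fl H3f3b fl/fl, and cKO cells carried the same alleles with LysM cre/cre, a recombinase driven from Lyz2 in myeloid cells that also disrupts both copies of Lyz2. LoxP sites flank exon 2 of H3f3a and all 4 exons of H3f3b. Of 81 libraries, 79 fell into 27 groups of 2 or 3 biological replicates. Mice were C57BL/6, male and female, at 8 to 10 weeks of age. Bone marrow cells grown in medium conditioned by L929 cells (BMDMs) were taken on days 3, 5 and 7, where the labels call the cells of days 3 and 5 progenitors. Day 8 BMDMs were left untreated or given IFNγ for 12 h (3 WT and 2 cKO libraries each). BMDMs of another experiment were grown without antibody, with a control antibody (mouse IgG1 κ isotype) or with the IFNAR1 antibody MAR1-5A3, which blocks the type I interferon receptor, at 10 μg/mL from day 0 to day 6. Resident macrophages were isolated from the peritoneum. Finally, cKO BMDMs that also lacked Sting, Mavs or Irf7 (double KOs, 3 libraries each) come with 3 sets of 3 WT and 3 cKO BMDM libraries, and the labels do not say which set belongs to which double KO. The strain names of the Sting, Mavs and Irf7 KO lines and of the LysM cre line all contain 129 besides B6, and the Mavs line was backcrossed to the cKO strain.

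Libraries held 3614967 to 45581528 counts on genes (median 18440728), and levels are given as CPM, the share of a library's counts scaled to a common total, with scaling factors from the trimmed mean of M-values. H3f3a fell in cKO against WT in 12 of 12 comparisons (log2 fold change -1.87 to -3.62), while H3f3b was called lower in 3 of 12, all in the antibody experiment. There H3f3b had 16.7 to 67.8 CPM in cKO and 295 to 468 CPM in WT, but elsewhere it was not called. In the time course it had 149 to 222 CPM in cKO against 181 to 280 CPM in WT. In the BMDM sets it had 187 to 220 against 200 to 285 CPM, so that reads of H3f3b were still counted in these cKO cells. The paper reports that the histone variant was depleted in cKO BMDMs as mRNA and as protein. It describes the deletion of H3f3b as variable, complete in some samples and partial in others. Whether the reads counted here came from alleles that kept the gene was not tested. Lyz2 had 4470 to 76400 CPM in WT and 1.69 to 81.9 CPM in cKO. Sting1 was at 5.01 to 6.1 CPM in the Sting double KO against 68.2 to 91.6 CPM in cKO, Irf7 at 98.3 to 112 against 249 to 470 CPM in the Irf7 double KO, and Mavs at 37.2 to 37.9 against 36 to 51.6 CPM in the Mavs double KO. For Sting1, Mavs and Irf7, whether the counted exons lie in the deleted parts was not tested. All 7 macrophage markers were read in each of the 27 groups. One library stood apart: cKO day 8 IFNγ replicate 1 had the fewest counts, 57.1% of its reads did not map, and 1 gene, Gm26917, took 53.1% of its counts, against 3.2 to 24.3% of its top gene in the other 78 libraries. Log2 fold changes and edgeR calls of members and listed genes that rest on this library are given with and without it. Marker counts and sums are given only with it. A further 2 cKO libraries of day 8 entered no comparison, because their titles and library names contradict each other about IFNγ.

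Apart from Cd74 and Ciita, the genes lie together in the class II region of chromosome 17. In the GENCODE annotation of the mouse genome (GRCm38, the same assembly as mm10) H2-DMa spans chr17:34119541-34139101, H2-DMb2 chr17:34143307-34151555 and H2-DMb1 chr17:34153072-34160230, all on the plus strand. H2-Ab1 (chr17:34257689-34269419) and H2-Eb1 (chr17:34305867-34316674) are on the plus strand and H2-Aa (chr17:34282744-34287823) on the minus strand between them. Ciita lies at chr16:10480059-10528418 on the plus strand. H2-DMb1 and H2-DMb2 are neighbouring copies of 1 gene, so reads that match both may have been lost as multimapping. Reads were counted without regard to strand, so that those over exon bases shared with a gene on the other strand were ambiguous and counted for neither gene. H2-DMa shares 360 exon bases (10.441%) with Brd2, and Ciita shares 329 (3.45%) with Dexi.

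Since X and Y boxes control chain and DM genes, the 250 bases before a RefSeq transcript start of 4 of them are shown. They are 2 chain genes whose levels moved together and the 2 DM β genes, whose levels had a lower r within groups (0.141). The sequences are from RefSeq (GRCm38.p6) and are written 5′ to 3′ on the strand of the gene, with matches in capitals. The RefSeq and GENCODE starts are the same base for H2-Aa and H2-Eb1. For H2-DMb1 the RefSeq start (chr17, 34153191) lies 119 bases inside the gene as GENCODE spans it, and for H2-DMb2 (chr17, 34145249) 1942 bases inside, 13 bases after the start of a shorter GENCODE transcript.
H2-Aa (chr17:34287824-34288073, minus strand): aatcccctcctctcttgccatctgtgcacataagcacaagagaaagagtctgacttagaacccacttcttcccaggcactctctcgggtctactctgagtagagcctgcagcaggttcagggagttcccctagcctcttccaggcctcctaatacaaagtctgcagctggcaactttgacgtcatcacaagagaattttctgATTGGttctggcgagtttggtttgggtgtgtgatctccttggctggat
H2-Eb1 (chr17:34305617-34305866, plus strand): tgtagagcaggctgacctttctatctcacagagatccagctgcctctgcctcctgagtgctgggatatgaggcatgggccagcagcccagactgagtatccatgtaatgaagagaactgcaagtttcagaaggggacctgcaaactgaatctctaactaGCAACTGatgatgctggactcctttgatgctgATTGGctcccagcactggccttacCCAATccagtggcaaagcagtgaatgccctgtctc
H2-DMb1 (chr17:34152941-34153190, plus strand): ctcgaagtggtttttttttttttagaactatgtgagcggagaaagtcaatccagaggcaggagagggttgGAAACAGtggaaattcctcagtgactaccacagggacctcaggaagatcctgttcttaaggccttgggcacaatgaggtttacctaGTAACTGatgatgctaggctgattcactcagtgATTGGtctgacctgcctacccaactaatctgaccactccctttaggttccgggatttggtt
H2-DMb2 (chr17:34144999-34145248, plus strand): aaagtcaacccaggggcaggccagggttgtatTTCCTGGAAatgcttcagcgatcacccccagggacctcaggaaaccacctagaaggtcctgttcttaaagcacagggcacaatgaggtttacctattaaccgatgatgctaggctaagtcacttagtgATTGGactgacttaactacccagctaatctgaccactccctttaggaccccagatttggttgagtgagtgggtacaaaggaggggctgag

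The motifs searched on both strands were ATTGG (the core of the Y box), GNAACNG (the core of the X box) and TTCNNNGAA (the core of the GAS element), and the matches shown do not overlap. Counted from these RefSeq starts, ATTGG lies 48 to 44 bases before that of H2-Aa, 59 to 55 before that of H2-Eb1, 61 to 57 before that of H2-DMb1 and 90 to 86 before that of H2-DMb2, and H2-Eb1 has another on the opposite strand. GNAACNG was found in the windows of H2-Eb1 (91 to 85 bases before the start) and H2-DMb1 (180 to 174 and 94 to 88), and TTCNNNGAA in that of H2-DMb2 (218 to 210). Such letters are common: of 32851 promoter windows of this length, 33.8% held ATTGG, 35.9% GNAACNG and 7.02% TTCNNNGAA. The windows of H2-DMb1 and H2-DMb2 match in 134 of 221 bases of an alignment without gaps (60.6%). H2-Ab1, Cd74 and Ciita were not matched in the promoter table.

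Before any treatment the 8 genes differed widely in level. Per kilobase of exon, Cd74 stood at 73.4 ± 47.7 CPM (mean ± SD, n = 3) in WT cells on day 3, above H2-Eb1 at 17.1 ± 11.7, H2-Ab1 at 15.1 ± 10.1, H2-Aa at 7.81 ± 5.05, H2-DMb1 at 6.4 ± 0.967 and H2-DMa at 3.95 ± 1.11 CPM per kb. H2-DMb2 (0.784 ± 0.0365) and Ciita (0.588 ± 0.361) were lowest. The SDs of neighbours in this order overlap from Cd74 down to H2-DMb1 and again between the last pair. All genes were read in the same libraries, and H2-Eb1 and Cd74 deviated together (within-group r 0.958). Overlap of their SDs therefore does not show that their order is uncertain. In BMDM set 2 of WT, H2-DMb1 (7.91 ± 0.425 CPM per kb) came second after Cd74 (72.4 ± 12.5), and with the IFNAR1 antibody H2-DMb1 (16.9 ± 5.52) and Cd74 (16.4 ± 13.2) could not be ordered.

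Replicates of the same group differed much in the chain genes and little in H2-DMa and H2-DMb1. The highest library of a group held a median of 2.61 times the lowest for H2-Aa over the 27 groups, 2.49 for H2-Eb1, 2.17 for Cd74 and 2.07 for H2-Ab1, but 1.29 for H2-DMa and 1.27 for H2-DMb1. Ciita (1.8) and H2-DMb2 (1.5, with over 2 times in 8 of 27 groups) were between. The widest spread was 17.4 times for H2-Eb1 among the 3 cKO libraries with control antibody. These deviations were shared between genes. Over 79 libraries, 1 was added to each CPM and each group's mean log2 value was subtracted. H2-Aa then followed Cd74 with a Pearson r of 0.959, H2-Eb1 with 0.957 and Ciita with 0.755. H2-DMa and H2-DMb1 followed each other (0.817), while H2-DMb2 followed the other members with an r of 0.13 to 0.375. H2-DMb2 was read at few counts and at levels near the added 1, so its low r does not show that it moved apart from the others. The points share libraries and depth, and r is given as a description. In RNA from a whole culture, fewer cells that express a gene and less RNA per cell cannot be told apart.

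**Figure D1:**
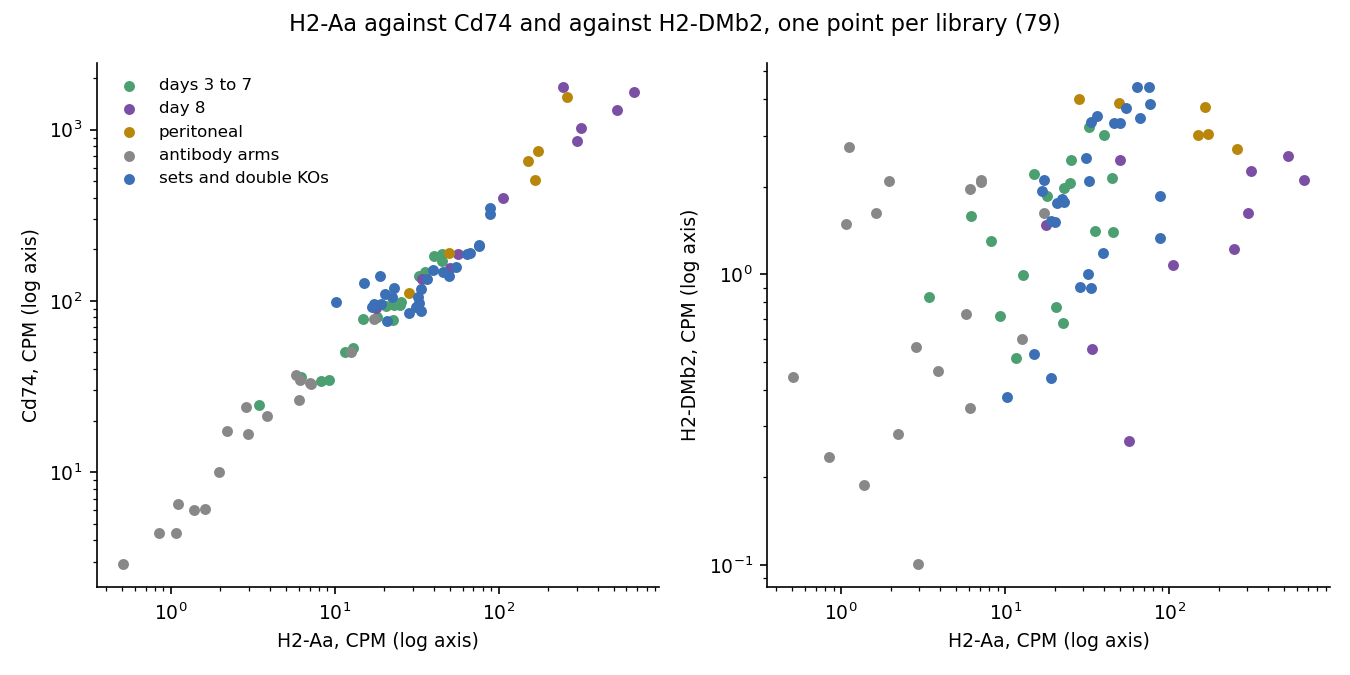
Level of H2-Aa (x axis, CPM, log scale) against Cd74 (left) and H2-DMb2 (right, y axes in CPM, log scales) in 79 libraries, coloured by experiment. Cd74 followed H2-Aa within groups with an r of 0.959, and H2-DMb2 with an r of 0.326.

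IFNγ raised class II genes in WT and in cKO BMDMs. Within 12 h all 8 members rose in WT cells and 7 of 8 in cKO cells, led in both genotypes by Ciita. The exception in cKO was H2-DMb2. A gene was called where its adjusted p was under 0.05. Called shares over all genes were large as well: 38.9% of the 13075 genes tested changed in WT (19.5% rose) and 33.9% in cKO (17.5% rose), but the median log2 fold change of the members was 2.96 in WT and 3.45 in cKO, against -0.01 and -0.02 over all genes.

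Ciita, the switch of the group, had 5.55, 10.1 and 6.91 CPM in the untreated WT libraries and 334, 601 and 497 CPM after IFNγ. In cKO it went from 2.79 and 2.18 CPM to 283 and 314 CPM. Every treated library was above every untreated one, and the log2 fold changes were 5.99 ± 0.31 (SE, adjusted p 9.58e-07) in WT and 6.90 ± 0.40 (adjusted p 5.56e-06) in cKO, that is 63.4-fold and 119-fold.

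H2-Aa had 34.0, 106 and 56.6 CPM in untreated WT cells and 301, 666 and 528 CPM with IFNγ. Its cKO libraries had 17.7 and 50.4 CPM without and 247 and 315 CPM with IFNγ. The groups did not overlap in either genotype (log2 fold change 2.92 ± 0.50, adjusted p 0.00124 in WT, and 3.05 ± 0.61, adjusted p 0.00419 in cKO). H2-Ab1, which encodes the partner chain, went from 28.2, 72.9 and 39.0 to 267, 560 and 490 CPM in WT and from 18.5 and 38.2 to 592 and 352 CPM in cKO. It rose 9.39-fold in WT (adjusted p 0.000342) and 16.6-fold in cKO (adjusted p 0.000558). H2-Eb1 went from 22.7 to 56.1 CPM up to 122 to 290 CPM in WT (2.52 ± 0.43, adjusted p 0.00124), and from 14 and 27.6 to 296 and 177 CPM in cKO (3.51 ± 0.55, adjusted p 0.00106).

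Cd74, still the highest member per kilobase of exon, had 135, 400 and 187 CPM in untreated WT cells and 861, 1670 and 1310 CPM after IFNγ. In cKO it had 91.0 and 155 CPM without and 1780 and 1030 CPM with IFNγ. Again all treated libraries were above the untreated ones (log2 fold change 2.41 ± 0.43, adjusted p 0.00169 in WT, and 3.52 ± 0.56, adjusted p 0.00111 in cKO).

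Among the DM genes, H2-DMa went from 13.4, 14.8 and 12.1 to 177, 240 and 227 CPM in WT and from 16 and 19.4 to 196 and 174 CPM in cKO. It rose by 4.0 ± 0.17 (adjusted p 3.97e-07) and 3.38 ± 0.21 (adjusted p 6.33e-06) on the log2 scale. H2-DMb1 went from 19.2, 21.8 and 20.2 to 124, 177 and 189 CPM in WT (3.0 ± 0.19, adjusted p 3e-06) and from 18.2 and 23 to 101 and 126 CPM in cKO (2.46 ± 0.23, adjusted p 5.71e-05). Both DM genes had tight, well separated groups.

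H2-DMb2 stayed low throughout. It had 0.555, 1.08 and 0.266 CPM in untreated WT libraries, from 5, 10 and 3 counts, and 1.63, 2.11 and 2.56 CPM after IFNγ (log2 fold change 1.73 ± 0.48, adjusted p 0.0172). In cKO it had 1.48 and 2.47 CPM without and 1.22 and 2.27 CPM with IFNγ, overlapping groups with a log2 fold change of -0.02 ± 0.58 (adjusted p 0.985). The call in WT was lost without untreated replicate 1 (adjusted p 0.0613), untreated replicate 3 (0.0673) or IFNγ replicate 3 (0.0649).

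**Figure D2:**
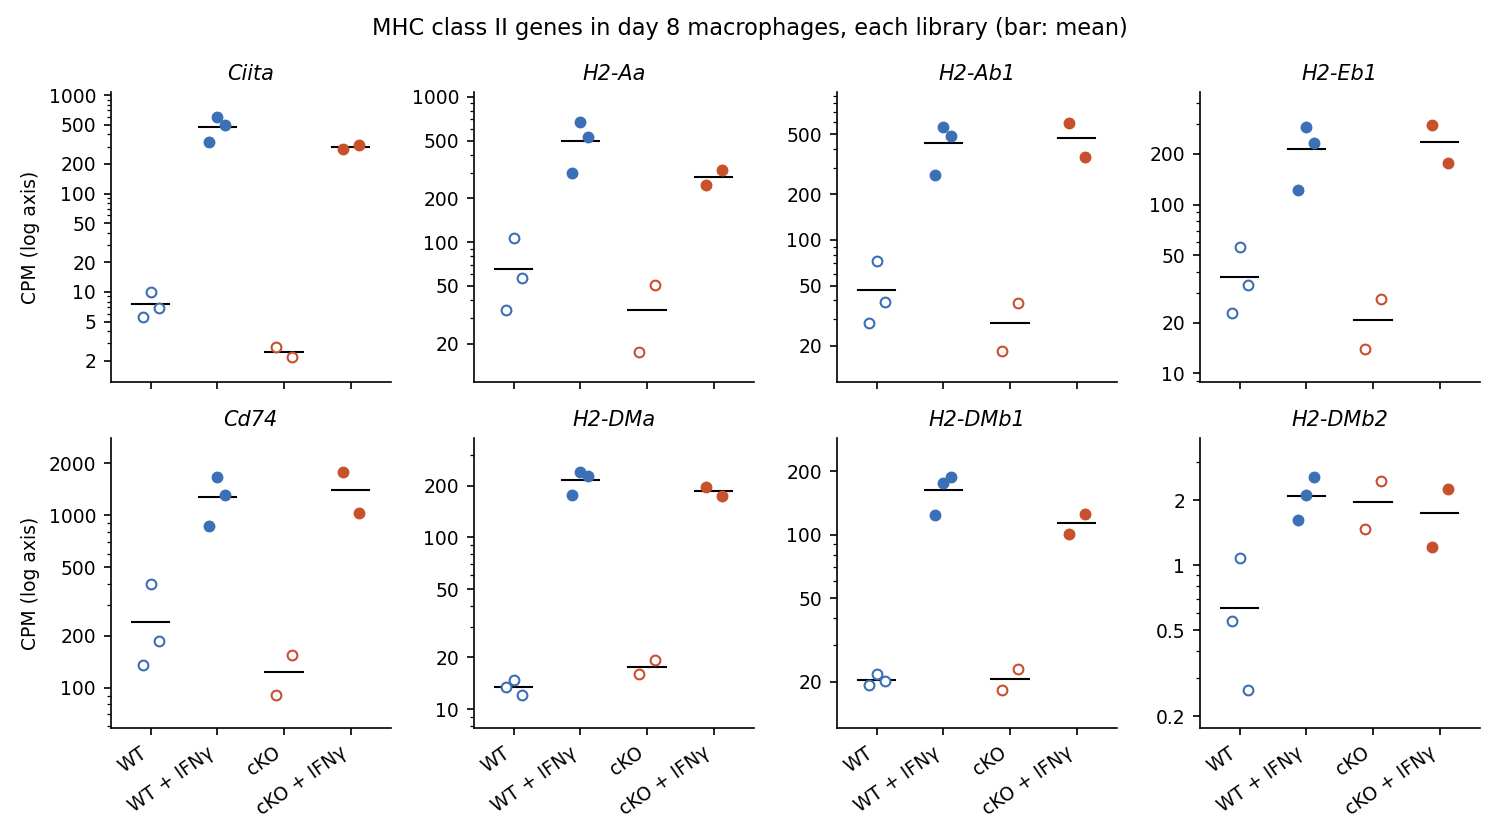
Level of each member (y axis, CPM, log scale) in day 8 BMDMs of WT and cKO with and without IFNγ for 12 h, where points are libraries and bars are group means. Treated libraries were above untreated ones for each gene apart from H2-DMb2, which overlapped in cKO.

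The rise did not differ detectably between the genotypes. For the difference of the responses (cKO minus WT), 0 of 8 members and 0.0% of all genes passed in edgeR. At an unadjusted p under 0.05 there were 1206 genes, 3 of them members, and DESeq2 called 83 genes and 0 members. Ciita had a difference of 0.91 ± 0.41 (adjusted p 0.541), Cd74 of 1.11 ± 0.65 (adjusted p 0.592), H2-DMa of -0.61 ± 0.25 (adjusted p 0.532) and H2-DMb2 of -1.75 ± 0.74 (adjusted p 0.534) on the log2 scale. Without the cKO library that stood apart these were 1.02 (adjusted p 0.348), 0.71 (0.69), -0.65 (0.258) and -1.48 (0.387), with 0 members and 33 genes (0.239%) called. Missing the threshold does not show that the responses were alike.

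For IFNγ in cKO without that library, the same 7 genes were called in cKO, with the lone treated library assumed to vary like the other groups. Ciita then rose by 6.99 (adjusted p 2.37e-07), H2-Ab1 by 3.67, H2-DMa by 3.33, H2-Aa by 3.25, H2-Eb1 by 3.13, Cd74 by 3.10 and H2-DMb1 by 2.64, while H2-DMb2 had 0.25 (adjusted p 0.749). With the conflicting libraries placed by their titles, 0 members were called in WT and 0 in cKO, and placed by their library names 8 and 7. Placement by title puts a library with 4.82 CPM of Ciita among the treated cKO libraries and one with 338 CPM among the untreated. In WT, where no library moved, the log2 fold change of Ciita was then 5.99 (adjusted p 0.0763 in edgeR), and all groups share 1 estimate of the spread.

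The genes around class II presentation followed in part. Of 32 genes on 4 lists (other class II chains, class II promoter binding, the path from IFNγ to Ciita, and antigen processing with costimulation), 30 were tested, of which 16 rose and 3 fell in WT, and 15 and 2 in cKO (14 and 3 without the library that stood apart, where 41.5% of all genes were called). By list in WT, 2 of 2 other chains rose, 1 of 7 promoter binding genes rose and 1 fell, 8 of 10 genes between IFNγ and Ciita rose and 1 fell, and 5 of 11 processing genes rose and 1 fell. Socs1, a feedback inhibitor of IFNγ signalling, rose from 2.57 to 3.12 CPM up to 290 to 404 CPM in WT (log2 fold change 6.99) and from 6.08 to 6.24 CPM up to 484 to 676 CPM in cKO (6.55, and 6.32 without the library that stood apart). Cd40, a costimulatory receptor, rose by 5.61 in WT and 5.47 in cKO (5.54 without it). Irf1 rose by 4.27 in cKO (4.45 without it), and H2-Oa, the α chain of DO, went from 0 to 1 counts per library to 11 to 19 in WT.

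Markers of other cells that carry class II were read in the same libraries. The summed level of the dendritic cell list was 22.8 to 25.7 CPM in untreated WT cells and 75.7 to 100 CPM with IFNγ, and 19.7 to 24.2 and 51.9 to 58.9 CPM in cKO. In WT 4 of 6 tested markers rose, and 3 of 6 in cKO. Clec9a (0 to 0.266 up to 44.9 to 67.6 CPM), Xcr1, Dpp4 and Batf3 were those 4 in WT, while Flt3 stayed at 1 count or less per library and Siglech at 0. The B cell list summed to 17.9 to 21.5 CPM without and 12.8 to 28.6 CPM with IFNγ in WT. Their part in the rise was not tested.

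Between cKO and WT on day 8, edgeR called 0 members without treatment (background 0.658% of genes, 3 members at an unadjusted p under 0.05, 1 by DESeq2) and 0 after IFNγ (5.48%, 2 members at an unadjusted p under 0.05, 0 by DESeq2, and 0 called without the library that stood apart). Ciita in untreated cKO cells, at 2.79 and 2.18 CPM, was below all 3 WT libraries at 5.55 to 10.1 CPM (log2 fold change -1.59 ± 0.31, adjusted p 0.0611), and DESeq2 called it (adjusted p 0.00131). With IFNγ the log2 difference of Ciita was -0.68 ± 0.28 (adjusted p 0.163), and -0.58 (adjusted p 0.25) without that library. Of the lists around class II, Socs1 was higher in untreated cKO cells (1.12, adjusted p 0.0399), and after IFNγ the receptor genes Ifngr1 (-1.07, adjusted p 0.0488) and Ifngr2 (-0.74, adjusted p 0.044) were lower and Usf1 higher (0.62, adjusted p 0.0497). Without the library that stood apart Ifngr1 (-0.64, adjusted p 0.0491) and Ifngr2 (-0.44, adjusted p 0.0364) were still called and Usf1 was not (0.42, adjusted p 0.0593).

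Across the 12 comparisons of cKO with WT, H2-DMb2 was the member that moved. It was called higher in 5 of them, had cKO libraries above all WT libraries in 9 (a pattern of 4.19 to 21.3% of all genes in the 12 comparisons), and ranged from -0.11 to 2.78 (median 1.62) on the log2 scale. H2-DMa was called once and the other 6 members in none. Ciita was higher in 4 and lower in 8 of the 12, Cd74 in 6 and 6, H2-DMb1 in 5 and 7, H2-Ab1 in 7 and 5, and H2-Aa and H2-Eb1 each in 8 and 4.

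In the 3 sets of BMDMs beside the double KOs H2-DMb2 was low in WT and about 3-fold higher in cKO. It had 1.86, 0.907 and 1.18 CPM in WT and 3.44, 3.85 and 4.40 CPM in cKO of set 1, where 1 of 8 members was called and the background was 34.6% of 18083 genes. In set 2 (2 members called, background 21.9%) it had 0.379, 0.438 and 0.53 CPM in WT and 1.51, 1.77 and 1.53 CPM in cKO. In set 3 (1 member called, background 35.9%) it had 1.33, 0.896 and 0.999 CPM in WT and 3.31, 4.42 and 3.75 CPM in cKO. In each set every cKO library was above every WT library. The log2 fold changes were 1.60 ± 0.20 (3.03-fold, adjusted p 1.59e-06), 1.84 ± 0.25 (3.59-fold, adjusted p 6.45e-06) and 1.80 ± 0.20 (3.48-fold, adjusted p 2.79e-07). Each was kept in 14 of 14 alternative settings, with values of 1.34 to 1.93, 1.72 to 1.96 and 1.68 to 2.17. The share of members called was below the background in sets 1 and 3, so the count is no result about the group.

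H2-DMb1, the neighbouring copy, did not pass the test in the same sets. Its WT libraries held 30.2, 20.1 and 35.7 CPM and its cKO libraries 21.2, 26.9 and 22.7 CPM in set 1 (log2 fold change -0.27 ± 0.17, adjusted p 0.23). The differences were 0.37 (adjusted p 0.135) in set 2 and -0.33 (adjusted p 0.135) in set 3. H2-DMa rose in set 2, from 11.4, 11.9 and 11.5 CPM in WT to 20.7, 22.9 and 22.4 CPM in cKO (0.92 ± 0.23, adjusted p 0.00496), with no overlap, and not in set 1 (-0.07, adjusted p 0.834) or set 3 (-0.11, adjusted p 0.732).

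The chain genes, Cd74 and Ciita did not pass in the sets in the main model, and replicate 1 of WT was far above the other WT libraries in sets 1 and 3. Cd74 had 320, 85.2 and 151 CPM in WT and 191, 210 and 189 CPM in cKO of set 1. In set 3 it had 349, 87.3 and 105 CPM in WT and 140, 213 and 157 CPM in cKO. Ciita had 34.2, 7.35 and 11.9 CPM in WT of set 1 and 50.4, 8.69 and 10.5 CPM in WT of set 3, against 9.77 to 14.2 and 10.3 to 15.7 CPM in cKO. In set 2 Ciita had 1.09, 1.92 and 1.52 CPM in WT and 4.76, 5.13 and 3.60 CPM in cKO, with no overlap (1.57 ± 0.65, unadjusted p 0.0236, adjusted p 0.0892), and it was called by DESeq2 (adjusted p 0.03) and with only the groups compared (0.000341). The latter model also called H2-Eb1 (0.67, adjusted p 0.00396) and H2-DMb1 (0.39, adjusted p 0.00158) in set 2. In set 3 Ciita (-0.96, adjusted p 0.124) was called lower without WT set 3 replicate 2 (-1.35, adjusted p 0.0267) or 3 (-1.30, adjusted p 0.0448), and had 0.34 (adjusted p 0.583) without replicate 1. Without WT set 3 replicate 1, Cd74 turned from -0.09 to 0.82 (adjusted p 0.0423) and H2-Aa was called at 0.86 (adjusted p 0.0382). Without WT set 1 replicate 1, H2-Aa was called at 1.02 (adjusted p 0.0169). Same-numbered WT libraries of sets 1 and 3 deviated together (r 0.143 to 0.386, other pairs -0.342 to 0.106), and the labels do not say whether the 2 sets are separate cultures.

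In the time course H2-DMb2 had 1.30, 1.41 and 1.40 CPM in WT and 3.21, 3.01 and 2.14 CPM in cKO on day 3 (log2 fold change 1.01 ± 0.33, adjusted p 0.0679), with no overlap. Here edgeR called 0 of 8 members (1 at an unadjusted p under 0.05, 0 by DESeq2), and the background was 8.65%. The count test gave an adjusted p of 0.0353 with only the groups compared in the model. On day 5 (background 3.12%, 0 members called, 0 at an unadjusted p under 0.05 and 0 by DESeq2) the values were 0.716, 1.99 and 1.86 CPM in WT and 2.07, 2.21 and 2.47 CPM in cKO (0.55, adjusted p 0.491), and on day 7 (background 1.82%, 0 members by the same 3 counts) they overlapped at 0.834, 0.77 and 0.517 against 1.59, 0.996 and 0.682 CPM (0.61, adjusted p 0.476). All 8 members had a positive log2 fold change on days 3 and 5 (medians 0.38 and 0.32, with 0.04 and 0.01 over all genes), and 4 of 8 on day 7. Ciita on day 3, for example, was at 1.70, 6.92 and 8.20 CPM in WT and 8.55, 8.89 and 8.78 CPM in cKO (0.62 ± 0.63, adjusted p 0.617). On that day the WT libraries of the chain genes and Cd74 spread around those of cKO. Cd74 had 34 to 189 CPM in WT and 140 to 184 CPM in cKO, and H2-Aa 8.25 to 45.2 and 32.4 to 45 CPM. In H2-Eb1 (8.11 to 52.4 and 38.4 to 49.2 CPM) WT replicate 1 was the lowest. As these genes deviated together within groups, their signs are not separate results.

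In the antibody experiment H2-DMb2 had 0.465, 0.235 and 0.101 CPM in WT without antibody, from 9, 5 and 2 counts, and 1.49, 2.08 and 2.10 CPM in cKO. The groups were far apart (log2 fold change 2.78 ± 0.55, adjusted p 0.0068), 1 of 8 members was called against a background of 8.16%, and the call was kept in 14 of 14 settings (2.41 to 3.39). With the control antibody (1 member called, background 5.11%) it had 0.56, 0.283 and 0.732 CPM in WT and 2.75, 1.63 and 1.97 CPM in cKO. That difference of 2.21 ± 0.51 (adjusted p 0.0196) was lost without WT control antibody replicate 1 (adjusted p 0.072), replicate 2 (0.148) or cKO control antibody replicate 1 (0.177). With the IFNAR1 antibody (0 members called by edgeR and DESeq2, 1 at an unadjusted p under 0.05, background 0.698%) the groups overlapped at 0.346, 0.188 and 0.601 CPM in WT and 0.444, 2.12 and 1.62 CPM in cKO (1.75 ± 0.55, adjusted p 0.2), and without cKO IFNAR1 antibody replicate 1 the gene was called (2.25, adjusted p 0.0286). Whether the difference between cKO and WT depended on the antibody was tested as the difference between the IFNAR1 and control arms, and 0 of 8 members and 0.0% of genes passed in edgeR. At an unadjusted p under 0.05 there were 990 genes, 1 of them a member, and DESeq2 called 49 genes and 0 members. For H2-DMb2 the difference was -0.45 ± 0.80 (adjusted p 0.95).

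**Figure D3:**
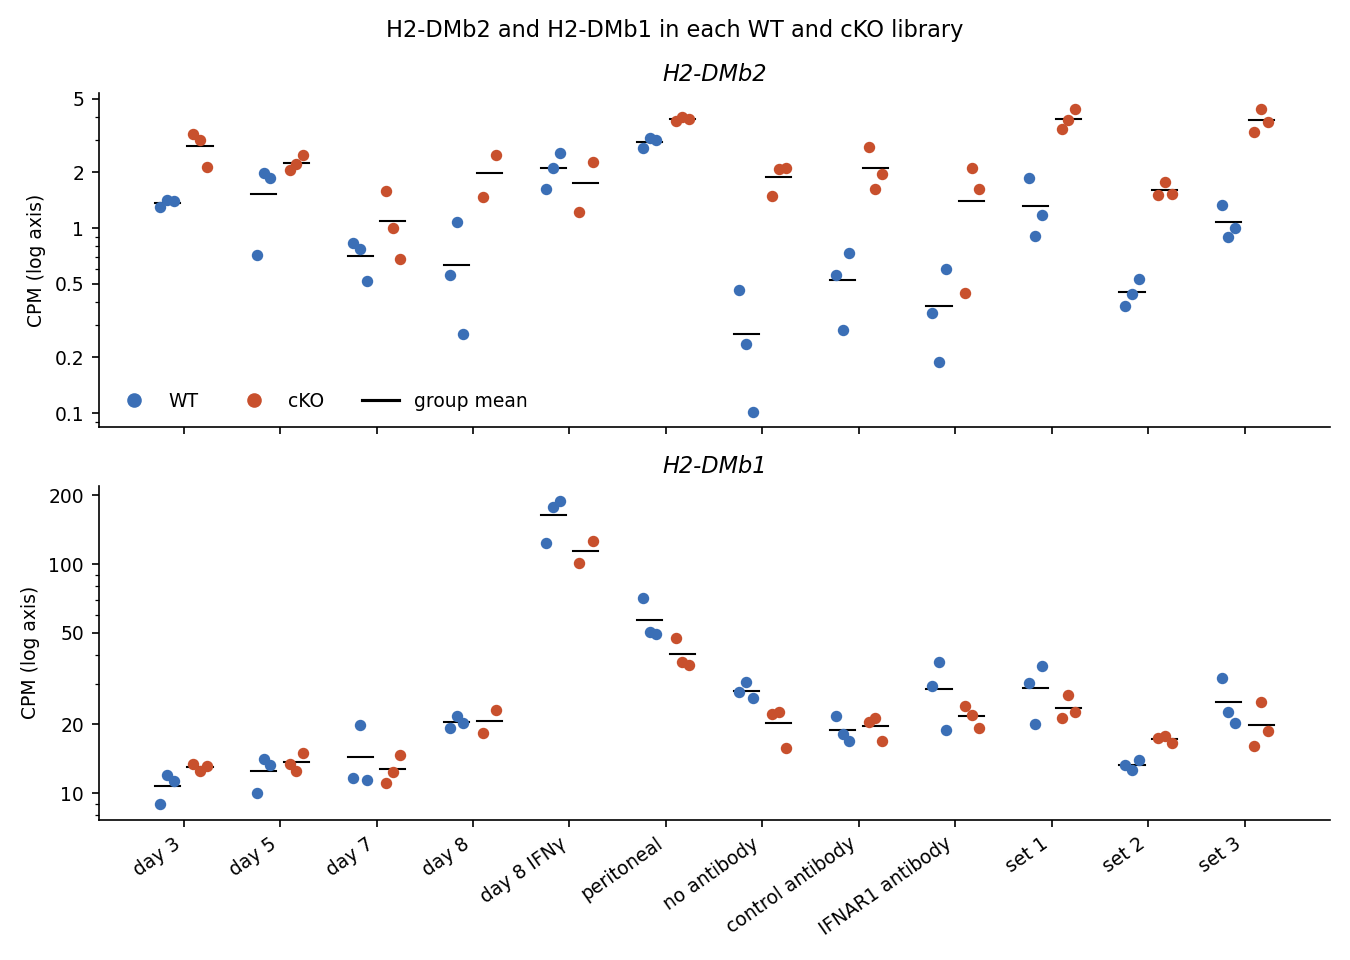
Level of H2-DMb2 (top) and H2-DMb1 (bottom, both in CPM on a log scale) in WT and cKO over the 12 comparisons, where points are libraries and bars are group means. For H2-DMb2 the points of cKO were above all WT points in 9 comparisons, while H2-DMb1 was called in none.

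Other rarely read class II chains were higher in cKO beside H2-DMb2. H2-Eb2, a β chain gene next to H2-Eb1, had 1 to 6 counts per library in WT and 17 to 19 in cKO on day 3 (log2 fold change 2.57, adjusted p 0.00233), 1 to 7 and 26 to 31 in set 1 (2.23, adjusted p 0.000246), 0 to 1 and 6 to 11 in set 2 (adjusted p 0.0097), and 2 to 8 and 11 to 21 in set 3 (1.40, adjusted p 0.0277). H2-Oa had 1 to 4 counts in WT and 6 to 19 in cKO on day 3 (2.27, adjusted p 0.00716), 4 to 7 and 25 to 40 in set 1 (2.15, adjusted p 0.00103), 0 to 4 and 13 to 16 in set 2 (adjusted p 0.00392), and 6 to 11 and 20 to 38 in set 3 (1.44, adjusted p 0.0121). Both genes were near the lower limit of what these libraries can count. Of the 4 lists around class II, 6 genes rose and 2 fell on day 3, 4 and 0 on day 5, 0 and 0 on day 7, and 8 rose and 6, 5 and 7 fell in sets 1, 2 and 3, of 31 tested. Socs1 and Irf1 rose on day 5 (1.81 and 1.02, adjusted p 0.0198 and 0.0312), Socs1 in set 3 (1.11, adjusted p 0.000278), Cd86 in set 1 (1.18, adjusted p 0.00354) and H2-Ob in set 2 (1.41, adjusted p 0.0142). Without antibody H2-Ob fell by 2.71 on the log2 scale (adjusted p 0.00234) and Nfya, which binds the Y box, by 0.80 (adjusted p 0.00282).

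Markers of B cells and dendritic cells rose in the same comparisons, and in the sets neutrophil markers rose too. Of 7 tested neutrophil markers 5, 2 and 5 rose and 0 fell in sets 1, 2 and 3, while 0 of 8 were called on day 3 in edgeR. Over all genes 8.65% were called on day 3 and 34.6%, 21.9% and 35.9% in sets 1, 2 and 3, in either direction. Of the 12 B cell markers, 8 rose and 0 fell on day 3, 8 rose and 1 fell in set 1, 5 and 0 in set 2, and 5 and 1 in set 3. Pax5 rose in all 4 (log2 fold changes 1.49, 4.16, 1.43 and 3.21), and Ms4a1 on day 3 (1.88), in set 1 (3.74) and in set 3 (3.23). The summed level of the list was 49 to 52.6 CPM in WT and 87 to 137 CPM in cKO on day 3, and 25.3 to 31.2 and 44.8 to 51.2 CPM in set 2. The sum was lower in cKO of set 1 (119 to 198 against 63.1 to 81.1 CPM) and set 3 (106 to 205 against 59.1 to 80.6 CPM), where the 1 marker that fell was Ighm.

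Of the dendritic cell markers 3 of 8 tested rose and 0 fell on day 3, and of 10 tested 7 rose and 1 fell in set 1, 5 and 1 in set 2, and 7 and 1 in set 3. Ccr7 and Xcr1 rose in all 4. The list summed to 12.4 to 26.6 CPM in WT and 40.7 to 48.5 CPM in cKO on day 3, to 15.6 to 26.8 and 52.3 to 56.6 CPM in set 1 and to 17.3 to 24.6 and 46.2 to 57.8 CPM in set 3. In set 2 it summed to 75.9 to 107 CPM in WT and 22.1 to 24.8 CPM in cKO, where the 1 marker that fell was Itgax. Each marker of both lists was read in WT and cKO of these comparisons, apart from Cd209a at 0 in cKO on day 3. In the antibody experiment 0 B cell markers rose and 1 fell of 6 tested without antibody and with the control antibody, and 0 of 5 dendritic cell markers were called in edgeR. The part of such cells in the higher H2-DMb2, H2-Eb2 and H2-Oa levels was not tested.

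In peritoneal macrophages the chain genes, Cd74 and Ciita were lower in cKO, but edgeR called 0 of 8 members in the model without pairing (5 at an unadjusted p under 0.05, 2 by DESeq2, background 1.06% of 12361 genes). Of the 8 genes, 6 had groups that did not overlap (15% of all genes), 5 of them lower in cKO (6.5% of all genes). Cd74 had 1560, 751 and 656 CPM in WT and 509, 111 and 191 CPM in cKO (log2 fold change -1.87 ± 0.55, adjusted p 0.239). H2-Eb1 had 222, 98.5 and 82.9 against 57.4, 10.8 and 25.1 CPM (-2.10 ± 0.59, adjusted p 0.211). H2-Ab1 had 653, 323 and 281 against 236, 64.8 and 102 CPM (-1.63 ± 0.49, adjusted p 0.249). In all 3 genes replicate 1 was the highest library of both genotypes.

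H2-Aa had 261, 173 and 150 CPM in WT and 165, 28.3 and 49.3 CPM in cKO, so that 1 cKO library lay among the WT libraries (-1.26 ± 0.56, adjusted p 0.53). Ciita had 5.73, 6.03 and 3.92 CPM in WT and 2.18, 1.58 and 2.99 CPM in cKO (-1.26 ± 0.32, adjusted p 0.164). The DM genes moved less. H2-DMb1 had a log2 fold change of -0.49 (adjusted p 0.475), H2-DMa of -0.14 (adjusted p 0.899) and H2-DMb2, at 2.70 to 3.05 CPM in WT and 3.77 to 4.01 CPM in cKO, of 0.40 (adjusted p 0.699). Same-numbered libraries deviated together, and with the replicate number as a block H2-Ab1 (-1.74, adjusted p 0.0255), H2-Eb1 (-2.28, adjusted p 0.0301) and Cd74 (-2.05, adjusted p 0.0247) fell in cKO. DESeq2 called H2-Ab1 (-1.65, adjusted p 0.0132) and Ciita (-1.26, adjusted p 0.0407).

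**Figure D4:**
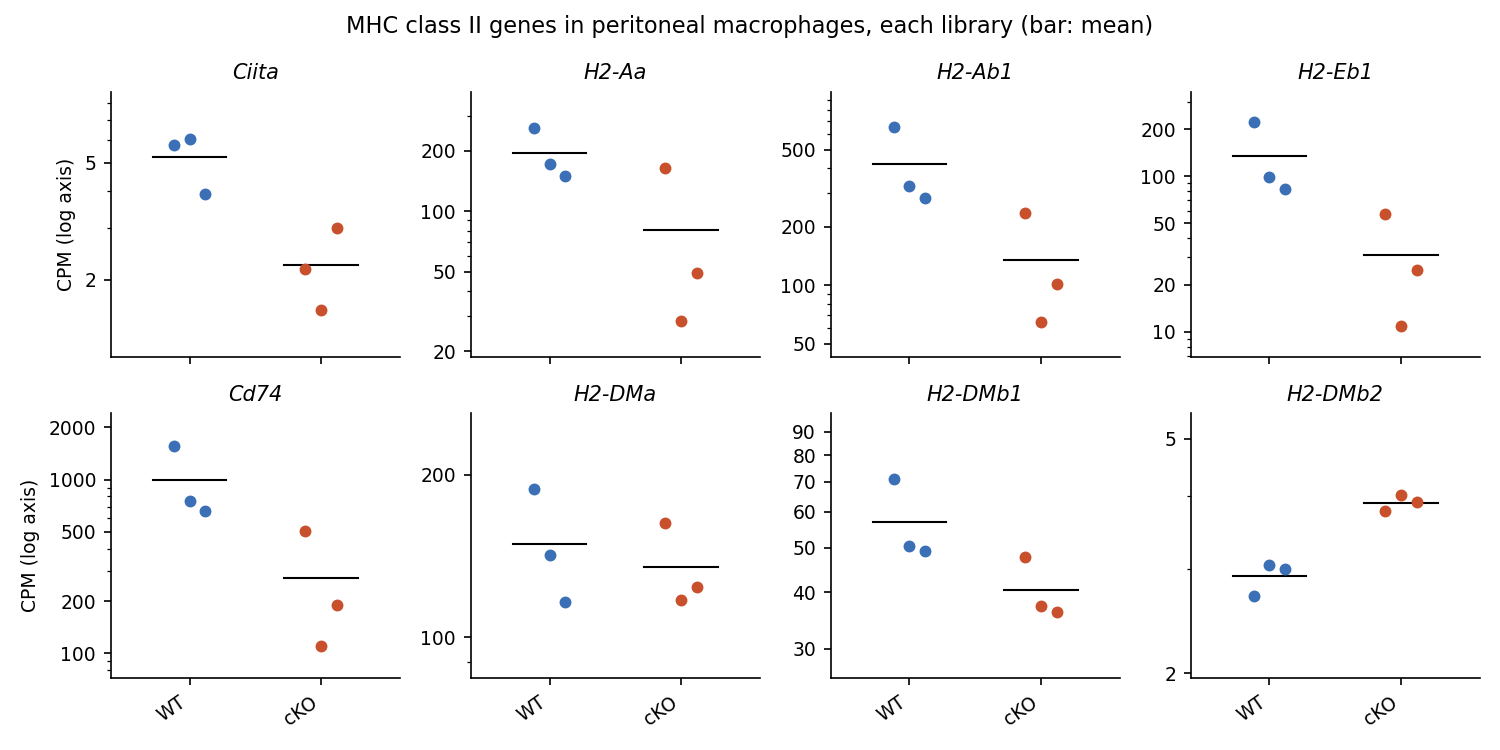
Level of each member (y axis, CPM, log scale) in peritoneal macrophages of WT and cKO, where points are libraries and bars are group means. The 3 cKO libraries were below the 3 WT libraries for Ciita, Cd74, H2-Ab1, H2-Eb1 and H2-DMb1, and above them for H2-DMb2.

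Peritoneal cells hold large macrophages, low in class II, and a smaller population of small macrophages that is rich in it. The list of small peritoneal macrophage markers summed to 230 to 1400 CPM in WT and 32.2 to 50.2 CPM in cKO. In edgeR 2 of 5 of its genes fell, Retnla (179 to 1300 against 5.85 to 7.66 CPM, adjusted p 0.0112) and Fcrls (adjusted p 0.0233). Retnla made up most of the sum in WT. Irf4, on the same list, had 9.33 to 28.5 CPM in WT and 16 to 23.2 CPM in cKO. Cd226 had 1.49 to 5.84 and 0.528 to 1.5 CPM, and neither gene was called. Cd209a, a marker of dendritic cells and small macrophages, fell by 1.46 on the log2 scale (adjusted p 0.0394), and Ccr2 had -1.68 (adjusted p 0.0883). Large macrophage markers summed to 3850 to 4330 CPM in WT and 3560 to 4170 CPM in cKO, B cell markers to 102 to 134 and 110 to 120 CPM, and dendritic cell markers to 23.6 to 38.1 and 17.7 to 39.9 CPM. The part of these cells in the lower class II levels was not tested. Of the genes around class II, 0 of 29 were called.

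Class II levels were lower on day 7 than on day 3 for most members. In cKO cells 2 of 8 fell, H2-Eb1 and H2-DMb2, against a background of 14.7% of genes. In WT cells edgeR called 0 of 8 against 24.5%, with 5 at an unadjusted p under 0.05 and 0 by DESeq2. The median log2 fold change of the members was -1.53 in cKO and -1.05 in WT, with 0.01 and 0.05 over all genes.

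H2-Eb1 had 38.4, 49.2 and 41.0 CPM on day 3 and 5.76, 8.49 and 15.2 CPM on day 7 in cKO (-2.12 ± 0.61, adjusted p 0.0281). In WT it had 8.11, 39.0 and 52.4 CPM on day 3 and 3.75, 18.2 and 11.3 CPM on day 7 (-1.60 ± 0.60, adjusted p 0.0631). The groups were apart in cKO and overlapped in WT, where replicate 1 was the lowest library on both days. Cd74 had 140, 184 and 171 CPM on day 3 and 35.8, 52.9 and 77.6 CPM on day 7 in cKO (-1.57 ± 0.53, adjusted p 0.0595). The 2 calls of cKO were lost in several fits with 1 library fewer, while the direction was kept in all 14 alternative settings. H2-Eb1 (-2.58 to -1.85 over the settings) was lost without cKO day 3 replicate 1 (adjusted p 0.0595) or 2 (0.0784) or cKO day 7 replicate 1 (0.0753) or 2 (0.107). H2-DMb2 (-1.35, adjusted p 0.0126, -1.72 to -1.09 over the settings) was lost without cKO day 3 replicate 1 (0.0606) or cKO day 7 replicate 2 (0.0582) or 3 (0.0846).

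Same-numbered cKO libraries of the 2 days deviated together, and with the replicate block 6 of 8 members fell in cKO, adding H2-Aa (-1.65, adjusted p 0.0274), H2-Ab1 (-1.84, adjusted p 0.0166), Cd74 (-1.64, adjusted p 0.012) and Ciita (-1.78, adjusted p 0.0436). In WT, leaving out day 3 replicate 1 gave 4 calls, H2-Aa (-1.79, adjusted p 0.0403), H2-Ab1 (-1.93, adjusted p 0.0252), H2-Eb1 (-2.07, adjusted p 0.0168) and Cd74 (-1.59, adjusted p 0.0287), and leaving out day 7 replicate 2 gave calls of H2-Ab1 (-2.31, adjusted p 0.0247) and H2-Eb1 (-2.15, adjusted p 0.0469). H2-DMa (0.19 and 0.45) and H2-DMb1 (-0.04 and 0.40, in cKO and WT) were not called. The change of the cKO effect between the 2 days was called in 0 of 8 members by edgeR (adjusted p 0.444 to 0.947, 0 at an unadjusted p under 0.05, background 0.0439%) and in 0 by DESeq2.

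Other genes of the lists moved over the same days, with 7 of 31 up and 3 down in WT and 1 up and 5 down in cKO. H2-Eb2 went from 17 to 19 counts on day 3 to 1 to 3 counts on day 7 in cKO (adjusted p 0.000394) and from 1 to 6 counts to 0 in WT (adjusted p 0.0176). Irf1 rose in WT (1.88, adjusted p 0.000167), and H2-Ob (-1.46, adjusted p 0.0461) and Socs1 (-1.34, adjusted p 0.0185) fell in cKO. Neutrophil markers summed to 1580 to 3040 CPM on day 3 and 74.1 to 131 CPM on day 7 in WT, and to 2730 to 4210 and 89.9 to 276 CPM in cKO. Markers of cells that carry class II fell as well: 8 of 12 B cell markers in WT and 8 in cKO, and 2 of 8 tested dendritic cell markers in WT and 4 in cKO, while 0 of either list rose. The dendritic cell list summed to 12.4 to 26.6 CPM on day 3 and 9.49 to 15.8 CPM on day 7 in WT, and to 40.7 to 48.5 and 10.8 to 14.9 CPM in cKO. The B cell list went from 49 to 52.6 to 63.8 to 199 CPM in WT and from 87 to 137 to 24.3 to 66.6 CPM in cKO. On day 7 Pax5, for example, was at 0 in both genotypes and Blk in cKO. Whether the changing mix of cells set the class II levels was not tested.

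In the antibody experiment class II chain genes were low, and H2-DMa was the 1 member called between antibody arms, in WT only. H2-Aa lay between 0.507 and 17.3 CPM over the 18 libraries, and H2-Ab1 between 3.47 and 17.5 CPM. In WT, H2-DMa had 24.6, 25.5 and 19.8 CPM without antibody, 13.7, 11 and 12.5 CPM with control antibody and 23.4, 35.9 and 17.3 CPM with the IFNAR1 antibody. The control group was below both others without overlap. H2-DMa was the 1 member that fell with the control antibody (-0.91 ± 0.25, adjusted p 0.0325, background 9.74%) and the 1 that rose with the IFNAR1 antibody over the control antibody (1.04 ± 0.25, adjusted p 0.0172, background 11.2%). The 2 comparisons share the control antibody libraries. As 1 of 8 members is near both backgrounds, the counts are no result about the group. In WT, H2-DMb1 (16.8 to 21.7 against 25.9 to 30.4 CPM) and H2-Ab1 (4.02 to 6.77 against 7.34 to 8.35 CPM) were also lower with control antibody than without, and did not overlap. Ciita was higher without overlap (1.25 to 2.47 against 0.759 to 1.03 CPM). These genes were not called, and such gaps were not counted over all genes.

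The 2 calls of H2-DMa were lost in several fits with 1 library fewer, while each kept its direction in all 14 alternative settings. The fall was lost without WT no antibody replicate 2 (adjusted p 0.109) or 3 (0.0575) and without WT control antibody replicate 1 (0.0662), 2 (0.141) or 3 (0.0952), at log2 fold changes of -1.02 to -0.83. The rise was lost without WT control antibody replicate 2 (0.096) or 3 (0.0643) or WT IFNAR1 antibody replicate 2 (0.0771). Same-numbered WT libraries without and with control antibody deviated together, and with the replicate block H2-DMb1 fell as well (-0.57, adjusted p 0.0302). In cKO, H2-DMa had 21.3, 22.5 and 18.1, then 14.1, 16.6 and 13.9, then 34.5, 25.9 and 18.6 CPM in the same order, again lowest with the control antibody, and edgeR called 0 of 8 members for the control antibody against none (background 2.09%, 0 at an unadjusted p under 0.05 and 0 by DESeq2) and 0 for IFNAR1 against control antibody (background 4.68%, 1 at an unadjusted p under 0.05 and 1 by DESeq2). For H2-DMa the latter was 0.84 ± 0.25 (adjusted p 0.0685).

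H2-Ob moved in the same direction. It had 60 to 78 counts per library in WT without antibody, 1 to 3 with control antibody and 35 to 122 with the IFNAR1 antibody, and both changes were called (-4.52, adjusted p 0.00152, and 4.56, adjusted p 0.00154). In cKO it had 5 to 10, 0 to 4 and 11 to 23 counts (IFNAR1 against control antibody, adjusted p 0.022). Cd86, a costimulatory ligand, fell with the control antibody in WT (-1.81, adjusted p 0.00184) and in cKO (-1.05, adjusted p 0.0389) and rose with the IFNAR1 antibody over it (1.22 and 1.43, adjusted p 0.00656 and 0.00691). Socs1 fell with the control antibody in WT (-2.19, adjusted p 0.0469), Cd40 rose with the IFNAR1 antibody in WT (1.67, adjusted p 0.0327), and Ctss, which cleaves the invariant chain, fell with it in cKO (-1.21, adjusted p 0.00249) and rose with the control antibody (0.76, adjusted p 0.0334). The small macrophage list was lowest with the control antibody in both genotypes. In WT it had 251 to 485 CPM without antibody, 49.8 to 72.1 CPM with control antibody and 227 to 288 CPM with the IFNAR1 antibody. In cKO, where edgeR called 0 members, it had 209 to 372, 23.3 to 77.6 and 201 to 411 CPM. The part of this list in the result was not tested. Of the 29 genes tested on the 4 lists, 3 rose and 4 fell in WT and 1 and 1 in cKO with the control antibody, and 3 rose and 3 fell in WT and 2 and 1 in cKO with IFNAR1 over control antibody.

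In the double KOs, chain genes were lower in Mavs-deficient cKO cells than the mean of the 3 cKO sets, but 0 members were called against cKO set 2 alone. In the order of the samples, set 2 stands next to the Mavs double KO, set 1 next to Sting and set 3 next to Irf7. Each double KO was compared with the mean of the 3 cKO sets and with that of the 3 WT sets, which all double KOs share. Against cKO, 4 of 8 members fell in the Mavs double KO (background 9.32%), 2 rose in the Sting double KO (background 36.4%) and 0 were called by edgeR in the Irf7 double KO (background 10.6%, 3 at an unadjusted p under 0.05 and 0 by DESeq2). Against WT, 1 rose and 4 fell with Mavs (43.2%), 3 rose with Sting (40.2%), and 1 rose and 1 fell with Irf7 (31.9%). The members called with Sting and with Irf7 were a smaller share than the genes called over all, so these counts against the mean of the sets are no result about the group. Against single WT sets, edgeR called 7 members for Irf7 with set 1, 5 with set 2 and 6 with set 3. With set 3, H2-Ab1 (-1.04), H2-Eb1 (-0.82) and Ciita (-2.18) were lower, and with set 2 Ciita was higher (1.78). Libraries of set 3 and of the Irf7 double KO list 54146 genes, those of the other sets and double KOs 55536.

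H2-Aa had 22.3, 17.2 and 16.8 CPM in the Mavs double KO, against 63.6 to 76.0 CPM in cKO of set 1, 19.1 to 22.9 CPM in set 2 and 49.8 to 75.4 CPM in set 3. H2-Eb1 had 13.9, 16.6 and 11.1 CPM against 48.8 to 56.0, 13.2 to 18.6 and 37.9 to 66.9 CPM. The Mavs libraries were far below sets 1 and 3 and overlapped set 2. The log2 fold changes against the mean of the sets were -1.32 ± 0.27 (H2-Eb1, adjusted p 0.00187), -1.23 ± 0.30 (H2-Aa, adjusted p 0.00915), -1.18 ± 0.33 (H2-Ab1, adjusted p 0.0221) and -0.55 ± 0.15 (H2-DMb2, adjusted p 0.0202). Against set 2 alone 0 were called (H2-Eb1 -0.19, H2-Aa -0.15, H2-Ab1 -0.06, H2-DMb2 0.29), so the fall depends on which set is the reference. Calls were also lost in fits with 1 library fewer: H2-Aa without Mavs replicate 2 (adjusted p 0.0545) or 3 (0.0651), H2-Ab1 without replicate 1 (0.0826), 2 (0.0615) or 3 (0.115), and H2-DMb2 without replicate 1 (0.0956) or 3 (0.091). Of the markers, 6 of 10 for dendritic cells, 3 of 12 for B cells and 5 of 7 tested for neutrophils fell in the same comparison, and 0 of these lists rose. Dendritic cell sums were 21.3 to 26.4 CPM in this double KO. The part of these cells in the result was not tested.

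Against the WT sets, H2-Ab1 (-1.15, adjusted p 0.00645), H2-Eb1 (-0.99, adjusted p 0.00386), H2-Aa (-0.86, adjusted p 0.0215) and Ciita (-1.28, adjusted p 0.0396) fell in the Mavs double KO. Each of these 4 had the opposite sign against WT set 2 alone (0.13, 0.46, 0.35 and 1.22). Ciita had 4.10, 2.85 and 3.69 CPM in this double KO, between WT set 2 (1.09 to 1.92 CPM) and the WT libraries of sets 1 and 3 (7.35 to 50.4 CPM). Its call was lost in 9 of 23 settings, among them those without WT set 1 replicate 1 (adjusted p 0.0768), WT set 2 replicate 2 (0.0724) or 3 (0.0514), WT set 3 replicate 1 (0.0606) or Mavs replicate 1 (0.0725), 2 (0.134) or 3 (0.0911). H2-Aa against WT was lost without Mavs replicate 2 (0.0837) or 3 (0.0894).

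In the Sting double KO, H2-DMa had 42.5, 32.7 and 38.1 CPM and rose against cKO (0.56 ± 0.18, adjusted p 0.0153) and WT (0.81 ± 0.18, adjusted p 0.00073). H2-DMb1 had 28.2, 27.1 and 28.4 CPM and rose by 0.47 ± 0.14 (adjusted p 0.00801) and 0.40 ± 0.14 (adjusted p 0.0226). H2-DMb2, the third DM gene, had 0.24 against cKO (adjusted p 0.198). The calls depend on which set is the reference. Against set 1 alone, H2-DMb1 had 0.24 (adjusted p 0.325) against cKO and -0.03 (0.913) against WT, and H2-DMa 0.36 (0.259) and 0.29 (0.363). Against set 3 alone, H2-DMa was lost against cKO (0.0639) and WT (0.125) and H2-DMb1 against WT (0.491). Without Sting replicate 1 or 3 the call of H2-DMa against cKO was lost (adjusted p 0.112 and 0.0572), and so was that of H2-DMb1 against WT (0.0749 and 0.0799). In the Irf7 double KO, Cd74 had 76.7, 96.6 and 91.5 CPM and fell against WT by 0.85 on the log2 scale (adjusted p 0.0443), a call lost in 13 of 23 settings. Among them were those without WT set 1 replicate 1 (adjusted p 0.0848), WT set 2 replicate 2 (0.0651) or 3 (0.0593), WT set 3 replicate 1 (0.0667) or Irf7 replicate 1 (0.152), 2 (0.0947) or 3 (0.108).

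H2-DMb2 was higher than WT in all 3 double KOs. It had 3.33, 3.35 and 3.51 CPM with Sting KO, 1.82, 2.11 and 1.93 CPM with Mavs KO and 1.76, 2.09 and 2.51 CPM with Irf7 KO. The log2 fold changes against WT were 1.99 ± 0.17 (adjusted p 1.16e-09), 1.20 ± 0.18 (adjusted p 6.3e-06) and 1.30 ± 0.18 (adjusted p 4.87e-06), kept in 23 of 23 settings each. Against WT 5, 4 and 2 of 12 B cell markers rose in the same 3 comparisons and 1 fell in each, and 5, 1 and 1 of 10 dendritic cell markers rose and 1 fell in each. Of 7 tested neutrophil markers 6, 2 and 2 rose and 0, 1 and 1 fell. Their part in the difference was not tested. H2-Oa had 16 to 23, 9 to 18 and 3 to 21 counts in the 3 double KOs and 0 to 11 in the WT sets (adjusted p 0.00017, 0.0108 and 0.0134).

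Of the 31 tested genes around class II, 10 rose and 5 fell in the Sting, 2 and 3 in the Mavs and 1 and 3 in the Irf7 double KO against cKO, and 12 and 5, 8 and 10, and 6 and 9 against WT. In the Sting double KO the endosomal proteases Lgmn (0.86, adjusted p 9.28e-07) and Ctsd (0.66, adjusted p 1.86e-05) and Socs1 (0.77, adjusted p 0.000305) rose against cKO, and H2-Eb2 (1.80, adjusted p 0.00685) and Socs1 (1.73, adjusted p 6.08e-09) against WT. In the Mavs double KO H2-Eb2 (-2.36, adjusted p 0.00177) and H2-Ob (-1.71, adjusted p 0.000888) fell and Ctsl rose (0.69, adjusted p 0.000577) against cKO, and H2-Ob fell (-1.31, adjusted p 0.00326) and Ctsl rose (0.86, adjusted p 3.87e-06) against WT. In the Irf7 double KO Cd40 rose (0.34, adjusted p 0.0219) and Ifngr2 (-0.32, adjusted p 0.00573) and Nfya (-0.31, adjusted p 0.000553) fell against cKO, and H2-Eb2 (1.55, adjusted p 0.0244) and Socs1 (1.33, adjusted p 1.15e-06) rose against WT.

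**Figure D5:**
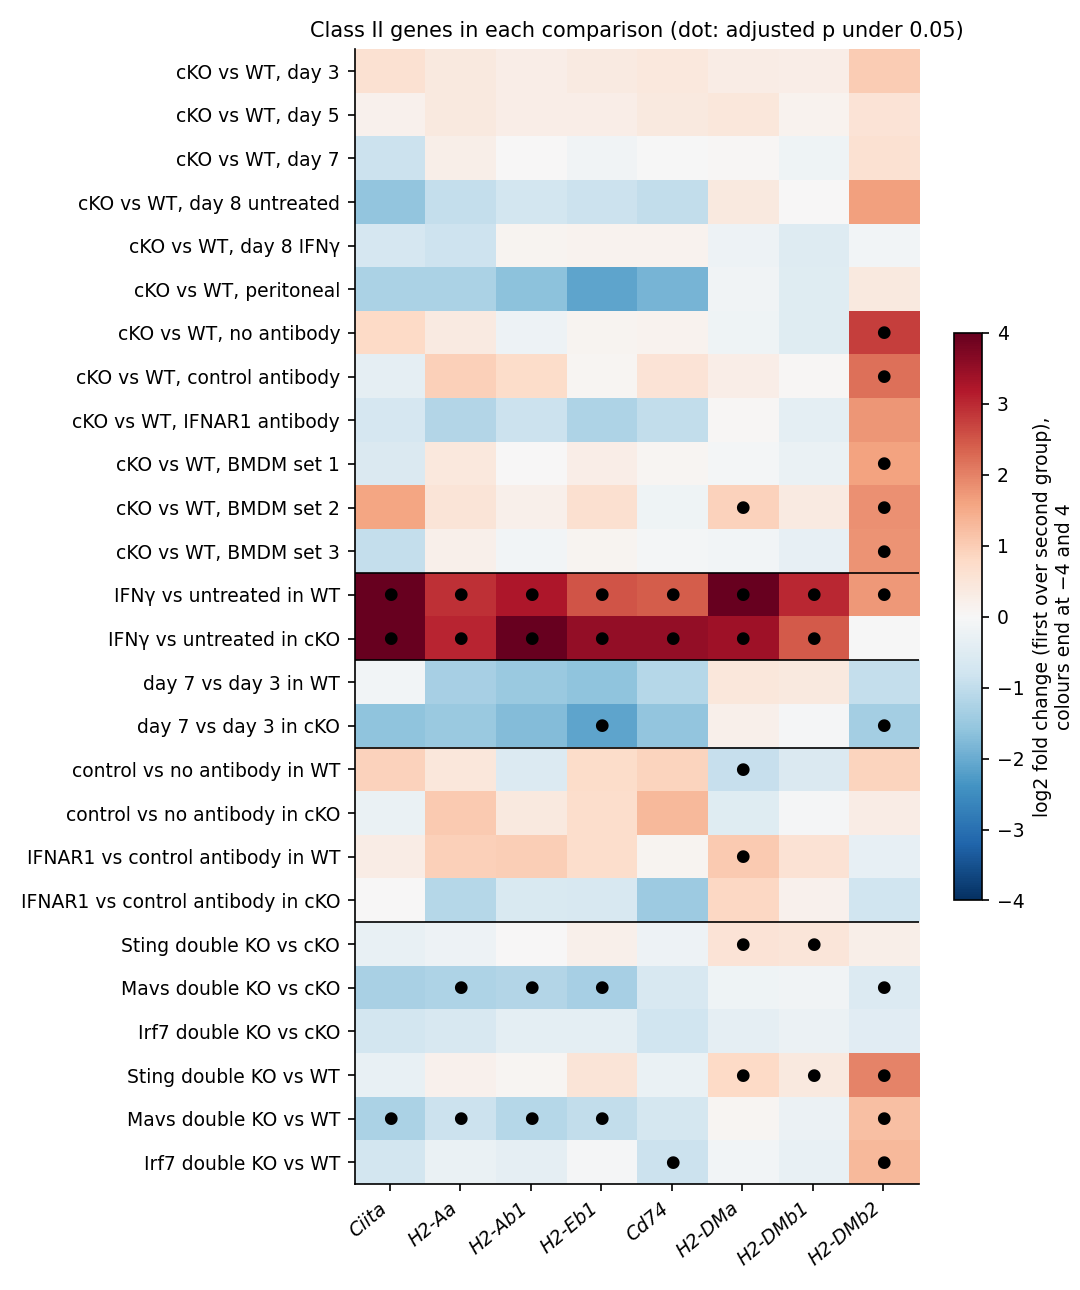
Log2 fold change (colour, ending at -4 and 4) of the 8 members (columns) in 26 comparisons (rows), where a dot marks an adjusted p under 0.05. The rows of IFNγ are called for nearly all members, and H2-DMb2 is called in 5 of 12 comparisons of cKO and in all 3 of the double KOs with WT.

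Over the 27 group means, the genes outside the group whose log2 CPM followed the mean of the standardised members best were Vamp8 (Pearson r 0.92), Tspo (0.919), Mppe1 (0.919), BC028528 (0.918) and Rabepk (0.917), out of 11181 candidates. The group means share libraries, cultures and depth, and the 2 groups with IFNγ are far from the others, so these values describe the pattern and were not tested.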

How the data were processed

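RNA-seq counts per gene of 81 libraries were used. Per the methods, reads were trimmed with cutadapt and aligned by the authors with STAR to mm10. The deposited counts are the raw, unstranded gene counts of STAR, and multimapping and ambiguous reads are left out of them. Peritoneal libraries are given as SMART-Seq v4 in the methods and as rRNA depletion libraries in the labels. The libraries list 54146, 55450 or 55536 genes and were joined on identifiers without version. Groups came from the sample labels.

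Genes were filtered in each experiment with filterByExpr (smallest count 10, total 15), scaled by TMM and fitted in edgeR 4.0.16 (with limma 3.58.1 under R 4.3.3), all groups of an experiment in 1 model, without a block. Calls rest on its quasi-likelihood F test with Benjamini-Hochberg adjustment across the genes that passed the filter (threshold 0.05). SEs were taken from the log2 fold change and its F statistic. The fit was also run on simulated counts with 1 spread for all genes and no shared deviations. Such counts cannot show how the fit performs on the members, which spread unequally and deviated together. Of 77 pairs of same-group libraries, none were within counting noise of each other. Depth limits H2-DMb2 most, with 2 to 10 counts in some libraries.

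Same-numbered libraries deviated together in 6 comparisons (r of every pair over 0.1): cKO against WT on day 3 (0.126 to 0.419), on day 7 (0.153 to 0.467) and in peritoneal macrophages (0.144 to 0.194), day 7 against day 3 in cKO (0.138 to 0.415), IFNγ in WT (0.335 to 0.451) and control against no antibody in WT (0.145 to 0.284). The labels give the numbers but no shared animal.

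The 8 members were named in every comparison, and up to 3 called genes of the 4 lists with the largest changes, apart from 1 gene that is not reported here. The members and lists were chosen with earlier results of these data known. Alternatives were DESeq2 1.42.0, RLE scaling, no filter, a filter at a mean of 1 CPM, models of the compared groups alone, the stranded count column, the replicate block, each replicate left out, a log2 fold change of at least 1, both placements of the conflicting libraries and each BMDM set as reference. An older edgeR quasi-likelihood method and a crossed block were added after seeing the data.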

Additional observations from a re-analysis of the deposited data

Results flagged for a closer look

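The 2 cKO libraries of day 8 whose titles contradict their library names entered no comparison. Values in them above the highest of the 3 untreated WT libraries of day 8 are listed here. In the library with IFNγ in its title and none in its name, H2-DMa had 19.7 CPM, against 14.8 CPM in the highest untreated WT library, and H2-DMb2 had 1.72 CPM, against 1.08 CPM. The untreated cKO libraries had 16 and 19.4 CPM of H2-DMa and 1.48 and 2.47 CPM of H2-DMb2. Ciita had 4.82 CPM in this library, below the untreated WT libraries. In the library without IFNγ in its title and with it in its name, all 8 members were above the untreated WT libraries: Ciita had 338 CPM, H2-Aa 400 CPM, H2-Ab1 384 CPM, H2-Eb1 208 CPM, Cd74 1190 CPM, H2-DMa 195 CPM, H2-DMb1 138 CPM and H2-DMb2 2.36 CPM. The treated cKO libraries had 283 and 314 CPM of Ciita. The values are given as measured, and neither library was assigned to a group.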

How the results depend on the processing

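Of 3855 values of single members under the alternatives, 3639 kept the direction, 203 changed sign without a call, 98 gained and 85 lost the call. For the values below that moved, the cause was not tested.

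With only the groups compared, the members called were 1 on day 3, 6 for day 7 against day 3 in cKO, 1 in untreated day 8 cells, 0 for IFNAR1 against control antibody in WT, 2 and 1 for control against no antibody in WT and cKO, 5 in set 2, 3 for Mavs against WT, and 4 and 1 for Irf7 against cKO and WT. DESeq2 called 4 for day 7 against day 3 in cKO, 1 in untreated day 8 cells, 2 in peritoneal macrophages, 2 and 1 for IFNAR1 against control antibody in WT and cKO, and 1 for Irf7 against WT. Without a filter 3 were called in untreated and 2 in treated day 8 cells and 5 in peritoneal macrophages. The stranded column gave 0 with control antibody and 1 for Irf7 against cKO, and RLE scaling 1 for Irf7 against WT. With the conflicting libraries placed by title, IFNγ gave 0 in WT and 0 in cKO. A log2 fold change of at least 1 left 0 for control against no antibody in WT, 1 in set 2, 0 and 1 for Sting against cKO and WT, 3 for Mavs against WT and 1 for Irf7 against WT.

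With the replicate block 2 members were called for day 7 against day 3 in WT and 6 in cKO, 3 in peritoneal macrophages, 2 and 1 for IFNAR1 against control antibody in WT and cKO, 2 for control against no antibody in WT and 1 for Irf7 against WT. The block changed no other count of members by over 1.5 times. For IFNγ in cKO, where the 2 pairs had r -0.187, the crossed pairing gave 7.

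With set 1 as reference, Sting gave 0 against cKO and 1 against WT, and Irf7 3 and 7. With set 2, Sting gave 6 and 7, Mavs 0 and 2, and Irf7 5 against WT. With set 3, Sting gave 1 against cKO, and Irf7 1 against cKO and 6 against WT. Called values turned against set 2 for Sting (H2-Aa 0.89 against cKO, Ciita 2.19 against WT), Mavs (H2-DMb2 0.29 against cKO, and against WT H2-Aa 0.35, H2-Ab1 0.13, H2-Eb1 0.46, Ciita 1.22, H2-Ob 0.37 and Ctsl -0.06) and Irf7 (H2-Aa 0.94, H2-Eb1 1.40, H2-DMa 0.79 and Ciita 1.78 against WT), and against set 1 for Sting (H2-DMb1 -0.03 against WT). Leaving out WT libraries of set 3, Cd74 in set 3 ranged from -0.42 (without WT set 3 replicate 2) to 0.82 (without WT set 3 replicate 1, the value that turned).

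Leaving out 1 library at a time, the members called ranged from 0 to 4 for day 7 against day 3 in WT and 0 to 2 in cKO, 0 to 1 in treated day 8 cells, 0 to 1 with control antibody, 0 to 1 with IFNAR1 antibody, 0 to 2 and 0 to 1 for IFNAR1 against control antibody in WT and cKO, 0 to 1 for control against no antibody in WT, 1 to 2 in set 1, 1 to 3 in set 3, 1 to 2 for Sting against cKO, 1 to 4 and 3 to 6 for Mavs against cKO and WT, and 1 to 3 for Irf7 against WT. H2-DMb1 was called in treated day 8 cells without cKO day 8 IFNγ replicate 2 (-0.72, adjusted p 0.0359 in edgeR), where the remaining cKO library is the one that stood apart.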
